A study of Homo sapiens with 8 samples.

Results

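The recovery of 8 long noncoding RNAs was followed in RNA recovered with biotinylated microRNA duplexes: MALAT1, NEAT1, NORAD, TUG1, OIP5-AS1, KCNQ1OT1, PVT1 and CYTOR. They were chosen as a list of Ensembl IDs, not by a threshold on the counts, but with earlier results of these data known. All 8 were found among the 60666 gene rows of the count table. The cells were 786-0, an established human line from a clear cell renal carcinoma, grown in high-glucose DMEM with serum. A biotin-tagged duplex was transfected, and after 48 h the tagged microRNA and the RNA held by it were captured and sequenced. The 3 groups were a control microRNA (3 libraries), miR-2355 (2 libraries) and miR-1271 (3 libraries), and all of them came from the same line and differed, as far as the labels say, only in the duplex. The study describes triplicates, but 2 miR-2355 libraries were used here. All values are relative within what was pulled down: no library of RNA from before the capture was used, so an altered amount in the cells and an altered capture cannot be told apart.

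Long noncoding RNAs carry out their work as RNA, without being translated. Some stay in the nucleus as scaffolds of subnuclear bodies, as MALAT1 does in nuclear speckles and NEAT1 in paraspeckles, while others such as NORAD act mainly in the cytoplasm, where the Argonaute proteins loaded with microRNAs are most abundant. A microRNA finds RNAs mainly by pairing of its seed, and several of these 8 transcripts have been studied as RNAs that bind microRNAs.

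The mature strands of the baits named in the study's design are shown because their seeds define what each could pair with. Sequences are from RefSeq (GRCh38.p14), 5′ to 3′, with the seed, bases 2 to 8, in capitals.
hsa-miR-2355-5p: aUCCCCAGauacaauggacaa
hsa-miR-1271-5p: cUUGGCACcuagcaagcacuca
The seeds held the same base at 3 of 7 positions. The sites that pair fully with them read CUGGGGA for miR-2355-5p and GUGCCAA for miR-1271-5p. The transcripts' own sequences were not analysed here. In the 6 RefSeq promoter windows found for 5 of the members, 300 bases each, neither site occurred on either strand (0 windows). Over all 35116 windows, 11.78% held CTGGGGA and 2.59% held GTGCCAA. A promoter window holds little of the RNA, so these shares say nothing of pairing with the transcripts.

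Libraries held between 4122875 reads (control replicate 2) and 22864693 reads (control replicate 1). Every member passed the filter on low counts in a fit of 17351 genes, and reads per member and library ran from 55 for KCNQ1OT1 in control replicate 2 to 34346 for MALAT1 in control replicate 1. Levels are CPM (read counts scaled to the library total) after TMM scaling, given as mean ± SD over libraries. A gene was called higher or lower at an edgeR quasi-likelihood adjusted p under 0.05. The name abundant held for part of the set. By mean share of reads, not corrected for length, MALAT1 ranked 69 among all rows and NORAD 506, whereas KCNQ1OT1 ranked 8124 and exceeded 53.4% of tested rows. CYTOR exceeded 61.3% and PVT1 62.5%. BWA, used to align the reads, does not splice them, so multi-exon RNAs may rank too low here.

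With miR-2355, 5 of the 8 RNAs rose and 1 fell against the control duplex: NEAT1, NORAD, KCNQ1OT1, PVT1 and TUG1 rose and MALAT1 fell. Among all tested genes 12.3% were higher and 17.5% lower. The median log2 fold change was 0.49 over the 8 members and 0.00 over all tested genes. With miR-1271, NEAT1, NORAD and PVT1 rose and MALAT1 fell, while the other 4 did not pass, beside 17.6% higher and 22.5% lower among all genes. The median was 0.18 for the members and 0.01 for all genes. Both comparisons use the same 3 control libraries and are given side by side for that reason. Between the microRNAs, NEAT1 and KCNQ1OT1 were higher with miR-2355 and no member was lower, against 3.5% higher and 2.65% lower among all genes. Regardless of sign, the median size of the log2 fold change with miR-2355 was 0.63 for the members and 0.37 for all genes. With miR-1271 it was 0.37 against 0.42, and between the microRNAs 0.12 against 0.25. There the median change of the members was no larger than that of all genes. The groups did not overlap for 7 of 8 members with miR-2355 against control, for 5 with miR-1271 against control, and for 3 between the microRNAs. Over all tested genes 52.7%, 49.9% and 41.5% showed no overlap, so this separation was common in the table.

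**Figure D1:**
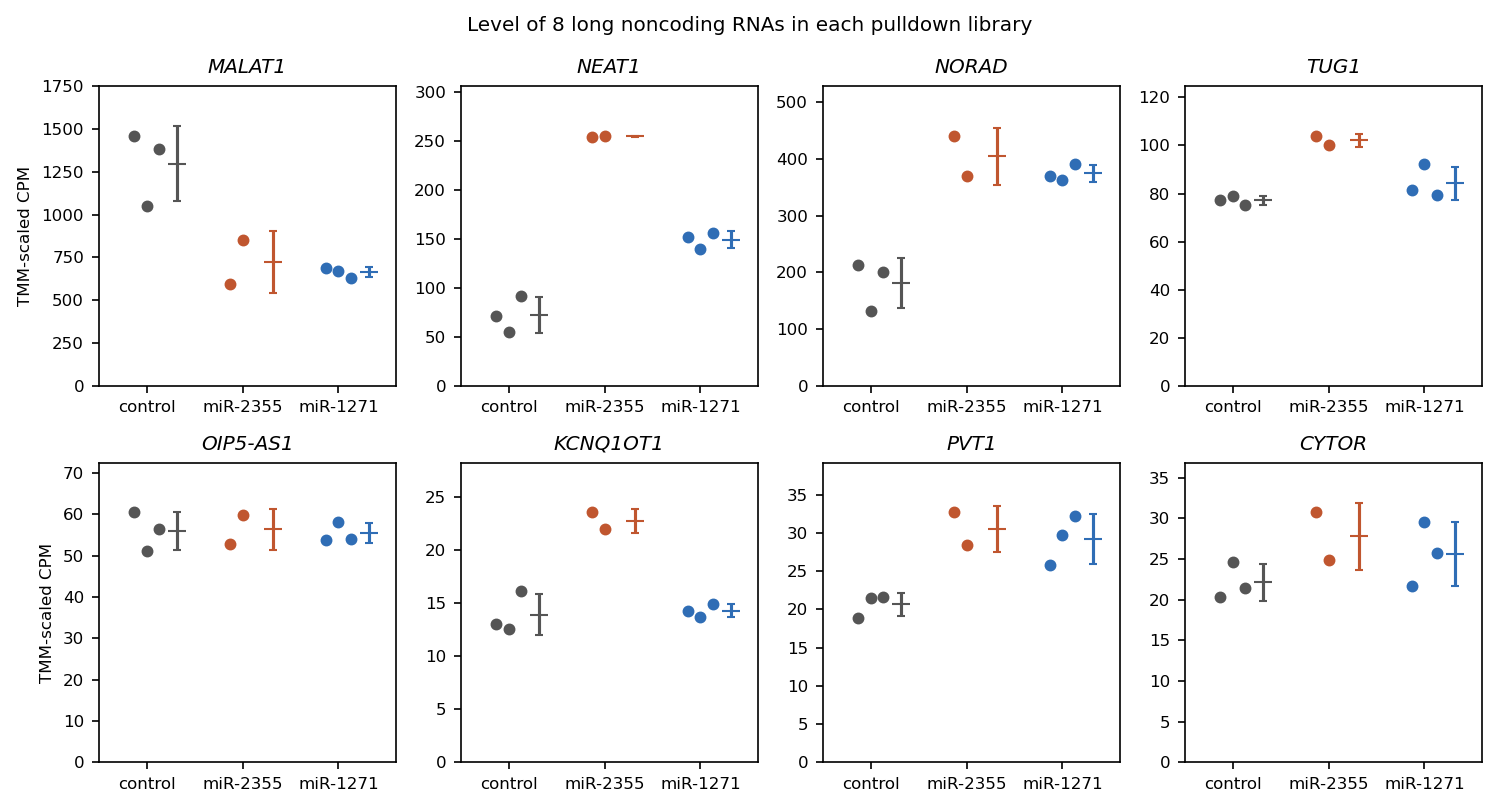
TMM-scaled CPM (y axis, from 0, own scale per panel) of each RNA in every library of the 3 groups; points are libraries, and the dash with its bar is the mean ± SD. MALAT1 lay at 1049.6 CPM or more in the 3 control libraries and at 851 or less in the 5 microRNA libraries, while NEAT1 and NORAD ran the other way and OIP5-AS1 overlapped in all groups.

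The direction of the members with the largest changes was kept under every scaling tried, but the balance of calls over all genes was not. Higher genes made up 41.1% of the calls for miR-2355 with TMM and 52.0% with upper-quartile factors. For miR-1271 they made up 43.9%, against 54.6% with upper-quartile factors and 28.0% when libraries were scaled by their totals only. In that comparison the median of all genes stood at -0.14 on the log2 scale under totals and at 0.10 under upper-quartile factors. Between the microRNAs the share was 57.0% with TMM and 82.7% with library totals, where the median stood at 0.12. Small differences below are to be read against shifts of that size.

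Among the nuclear RNAs, MALAT1 (ENSG00000251562; chr11:65497738-65506516 in RefSeq, GRCh38.p14) was the only member that fell. This transcript is retained in nuclear speckles and has been linked to splicing and to metastasis. It stood at 1459, 1049.6 and 1385 CPM in control replicates 1 to 3, at 595 and 851 with miR-2355, and at 691, 669 and 632 with miR-1271. All control libraries lay above all microRNA libraries. The control mean was 1298 ± 218 CPM (SD, n = 3). The miR-2355 mean was 723 ± 181 CPM (SD, n = 2) and the miR-1271 mean 664 ± 29.9 CPM (SD, n = 3). Against the control the level with miR-2355 was 1.80-fold lower, or -0.84 ± 0.19 on the log2 scale (SE; edgeR adjusted p = 0.00263). With miR-1271 it was 1.96-fold lower, at -0.97 ± 0.16 (SE; edgeR adjusted p = 0.000207). The 2 miR-2355 libraries differed from each other: without replicate 1, the lower of them, the log2 fold change was -0.59 and no longer passed (edgeR adjusted p = 0.0832; range over 16 alternatives, DESeq2 among them here and below, 7.1e-06 to 0.0832). The microRNA groups overlapped and differed by 0.12 on the log2 scale (95% interval -0.26 to 0.51; edgeR adjusted p = 0.738).

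NEAT1 (ENSG00000245532; chr11:65422798-65445540), the RNA scaffold around which paraspeckles form, moved opposite to MALAT1 although the genes lie 52.2 kb apart on chromosome 11. It stood at 71.7, 54.5 and 91.3 CPM in the control libraries, at 254 and 255 with miR-2355 and at 152, 139.6 and 156 with miR-1271. The 3 groups did not overlap: the control libraries were lowest and the miR-2355 libraries highest. The mean rose from 72.5 ± 18.4 CPM (SD, n = 3) to 254 ± 0.67 (SD, n = 2) with miR-2355, which was 3.47-fold or 1.79 ± 0.16 on the log2 scale (SE; edgeR adjusted p = 6.45e-07). Only 0.5% of tested genes had a larger log2 fold change in that comparison. With miR-1271 it rose to 149 ± 8.52 CPM (SD, n = 3), 2.03-fold or 1.02 ± 0.15 (SE; edgeR adjusted p = 5.65e-05). The gap between the microRNAs was 0.77 ± 0.16 (SE; 95% interval 0.43 to 1.11; edgeR adjusted p = 0.011). That gap kept its size, from 0.73 to 0.81, when any single library was left out. It did not pass without miR-2355 replicate 1 (edgeR adjusted p = 0.0518), miR-2355 replicate 2 (0.0866) or miR-1271 replicate 2 (0.0514), where the range over all alternatives was 1.46e-05 to 0.0866. RefSeq lists 2 NEAT1 transcripts, a short and a long form that share their start, and a count per gene does not separate them.

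KCNQ1OT1 (ENSG00000269821; chr11:2608328-2699994) is the long antisense transcript from an intron of KCNQ1 that keeps neighbouring imprinted genes silent on the paternal chromosome. Its level was 13.0, 12.5 and 16.1 CPM in the control libraries and 14.3, 13.7 and 14.9 with miR-1271, and these groups overlapped. With miR-2355 it was 23.5 and 21.9 CPM, above all other libraries. The mean rose from 13.9 ± 1.95 (SD, n = 3) to 22.7 ± 1.11 CPM (SD, n = 2), 1.61-fold or 0.69 ± 0.15 on the log2 scale (SE; edgeR adjusted p = 0.00292), and this call was kept in all 16 alternatives. With miR-1271 the mean was 14.3 ± 0.618 CPM (SD, n = 3) and the log2 fold change 0.02 (95% interval -0.29 to 0.33; edgeR adjusted p = 0.923), with a sign that turned under library totals. The difference between the microRNAs was 0.67 ± 0.15 (SE; edgeR adjusted p = 0.0186). It kept its size, 0.63 to 0.72, without any single library, but passed in none of the 5 fits that left out a microRNA library (edgeR adjusted p 0.0507 to 0.109; 0.00476 to 0.109 over all alternatives). At equal depth it also missed (0.69, edgeR adjusted p = 0.0552). The gene overlaps KCNQ1 on the other strand, and since the strand setting of the counting is not given in the sources used here, reads of the partner cannot be told apart from its own.

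**Figure D2:**
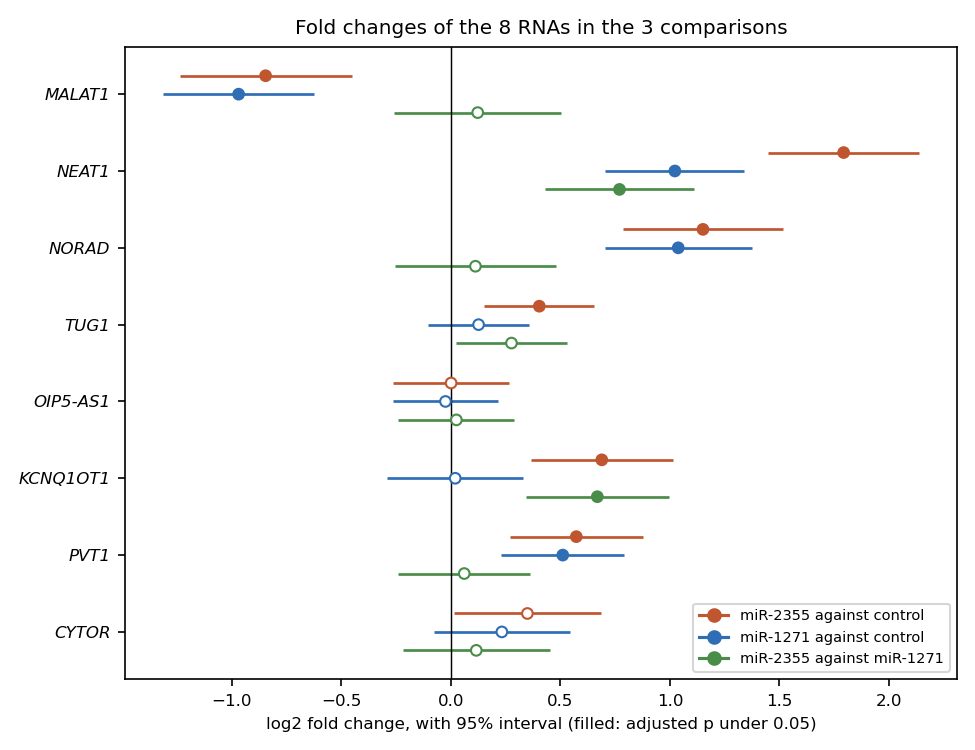
Log2 fold changes (x axis) of the 8 RNAs in the 3 comparisons, with lines for 95% intervals from the edgeR fit and filled points for an adjusted p under 0.05. NEAT1 reached 1.79 with miR-2355 and 1.02 with miR-1271, MALAT1 lay at -0.84 and -0.97, and the intervals of OIP5-AS1 covered 0 in all 3 comparisons.

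Among the cytoplasmic RNAs, NORAD (ENSG00000260032; chr20:36045618-36050960) rose in both pulldowns. It is an unspliced, cytoplasmic RNA known for its part in genome stability. Its level was 212, 131 and 200.1 CPM in the control libraries, 441 and 369 with miR-2355 and 370.1, 363 and 391 with miR-1271. Every microRNA library lay above every control library. The mean rose from 181 ± 43.7 CPM (SD, n = 3) to 405 ± 50.4 (SD, n = 2) with miR-2355, 2.22-fold or 1.15 ± 0.17 on the log2 scale (SE; edgeR adjusted p = 0.000104). With miR-1271 the mean was 375 ± 14.5 CPM (SD, n = 3), 2.05-fold or 1.04 ± 0.16 (SE; edgeR adjusted p = 8.27e-05). Both calls were kept in all 16 alternatives, which ran from 0.97 to 1.27 for miR-2355 and from 0.86 to 1.16 for miR-1271. The microRNA groups overlapped, and their difference of 0.11 (95% interval -0.26 to 0.48; edgeR adjusted p = 0.753) did not pass. Unlike NEAT1, NORAD gave no detectable difference between the baits, although its interval reaches to the lower part of that of NEAT1.

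OIP5-AS1 (ENSG00000247556; chr15:41282697-41313338), also known as cyrano, carries a conserved site for miR-7. Its level was 60.4, 51.1 and 56.4 CPM in the control libraries, 52.9 and 59.9 with miR-2355 and 53.8, 58.2 and 54.1 with miR-1271. All 3 groups overlapped, with means of 56.0 ± 4.67 (SD, n = 3), 56.4 ± 4.96 (SD, n = 2) and 55.4 ± 2.46 CPM (SD, n = 3). The log2 fold change was 0.00 with miR-2355 (95% interval -0.26 to 0.27; edgeR adjusted p = 0.995) and -0.02 with miR-1271 (-0.26 to 0.22; edgeR adjusted p = 0.884). Its sign turned with the scaling in both comparisons. The intervals leave room for changes of up to about 0.27 on the log2 scale, so a small change was not detectable, while one of the size seen for NORAD lies outside them.

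CYTOR (ENSG00000222041; chr2:87455427-87521518), also called LINC00152, is a cytoplasmic RNA often reported at raised levels in tumours. It stood at 20.3, 24.6 and 21.4 CPM in the control libraries, 30.7 and 24.8 with miR-2355 and 21.6, 29.5 and 25.8 with miR-1271. The miR-2355 libraries lay above the controls, though replicate 2 only just, and the miR-1271 libraries overlapped them. Means were 22.1 ± 2.25 (SD, n = 3), 27.8 ± 4.17 (SD, n = 2) and 25.6 ± 3.94 CPM (SD, n = 3). Neither the log2 fold change of 0.35 with miR-2355 (95% interval 0.01 to 0.69; edgeR adjusted p = 0.11) nor that of 0.23 with miR-1271 (-0.08 to 0.54; edgeR adjusted p = 0.221) passed.

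CYTOR has a related locus elsewhere on chromosome 2, MIR4435-2HG, and the promoter sequences show how alike their surroundings are. The RefSeq windows at both starts were compared without gaps: 241 of 241 bases in the shared stretch were identical. This stretch lies wholly upstream of the CYTOR start. At the other locus it runs past the MIR4435-2HG start (chr2:111495161) into the transcribed part. A piece of 60 bases of each is shown, outside the transcribed part of both genes, at chr2:87455277-87455336 (plus strand) and chr2:111495193-111495252 (minus strand) in GRCh38.p14. Capitals would mark bases that differ, and there are none (0 of 60).
CYTOR: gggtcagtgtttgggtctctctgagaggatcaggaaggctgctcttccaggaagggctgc
MIR4435-2HG: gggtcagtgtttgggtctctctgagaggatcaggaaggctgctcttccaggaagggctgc
The identity is one of sequence around the starts, with the first transcribed bases of MIR4435-2HG included, and does not show that counted reads were shared. The transcripts of the loci were not compared here, so whether the CYTOR row holds reads of the other locus was not tested.

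TUG1 (ENSG00000253352; chr22:30969265-30979395) is found in both nucleus and cytoplasm and was first described in the developing retina. RefSeq classes the locus as protein coding, although it is listed here among long noncoding RNAs. Its control libraries were tight, at 77.5, 78.9 and 75.3 CPM. Levels were 104 and 100.3 CPM with miR-2355 and 81.3, 92.2 and 79.4 with miR-1271, so that no microRNA library lay below a control library. The mean rose from 77.3 ± 1.81 (SD, n = 3) to 102 ± 2.58 CPM (SD, n = 2) with miR-2355, 1.32-fold or 0.40 ± 0.12 on the log2 scale (SE; edgeR adjusted p = 0.0171). This was the least secure of the calls against the control: it was lost in 5 of 16 alternatives, among them equal depth (0.33), no control replicate 3 (0.38) and the omission of either miR-2355 library (0.40 and 0.43), with adjusted p from 0.00519 to 0.108 over the alternatives. With the replicate number as a block it was 0.37 (edgeR adjusted p = 0.0623). With miR-1271 the mean was 84.3 ± 6.88 CPM (SD, n = 3) and the log2 fold change 0.13 did not pass (95% interval -0.10 to 0.36; edgeR adjusted p = 0.371), nor did the difference of 0.28 between the microRNAs (0.03 to 0.53; edgeR adjusted p = 0.174).

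PVT1 (ENSG00000249859; chr8:127794524-128101256) is a long, much spliced gene next to MYC that also hosts several microRNAs, and RefSeq lists 51 transcripts of it. Its level was 18.9, 21.4 and 21.6 CPM in the control libraries, 32.7 and 28.4 with miR-2355 and 25.8, 29.8 and 32.2 with miR-1271. Every microRNA library exceeded every control library, and the microRNA groups overlapped. The mean rose from 20.7 ± 1.48 (SD, n = 3) to 30.5 ± 3.03 CPM (SD, n = 2) with miR-2355, 1.49-fold or 0.57 ± 0.14 on the log2 scale (SE; edgeR adjusted p = 0.00655). With miR-1271 it rose to 29.2 ± 3.24 CPM (SD, n = 3), 1.43-fold or 0.51 ± 0.13 (SE; edgeR adjusted p = 0.0058). The miR-1271 call held in all 16 alternatives. The miR-2355 call was lost without miR-2355 replicate 1 (0.49, edgeR adjusted p = 0.0952) and at equal depth (0.41, 0.0736), with a range over the alternatives of 0.00261 to 0.0952. The microRNAs differed by 0.06 (95% interval -0.24 to 0.36; edgeR adjusted p = 0.844).

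The make-up of the set changed more than its total. In the control the 8 RNAs took 0.181% ± 0.026 of reads (SD, n = 3). Their share was 0.166% ± 0.0175 (SD, n = 2) in the miR-2355 group and 0.131% ± 0.00234 (SD, n = 3) in the miR-1271 group. MALAT1 supplied 74.45% ± 0.917 of the members' reads in the control, 44.3% ± 7.74 with miR-2355 and 47.5% ± 1.73 with miR-1271. Without MALAT1 the other 7 took 0.0462% ± 0.00554, 0.092% ± 0.00315 and 0.0688% ± 0.00313 of reads in the same order. These sums are led by MALAT1, NORAD and NEAT1 and describe little of the others.

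**Figure D3:**
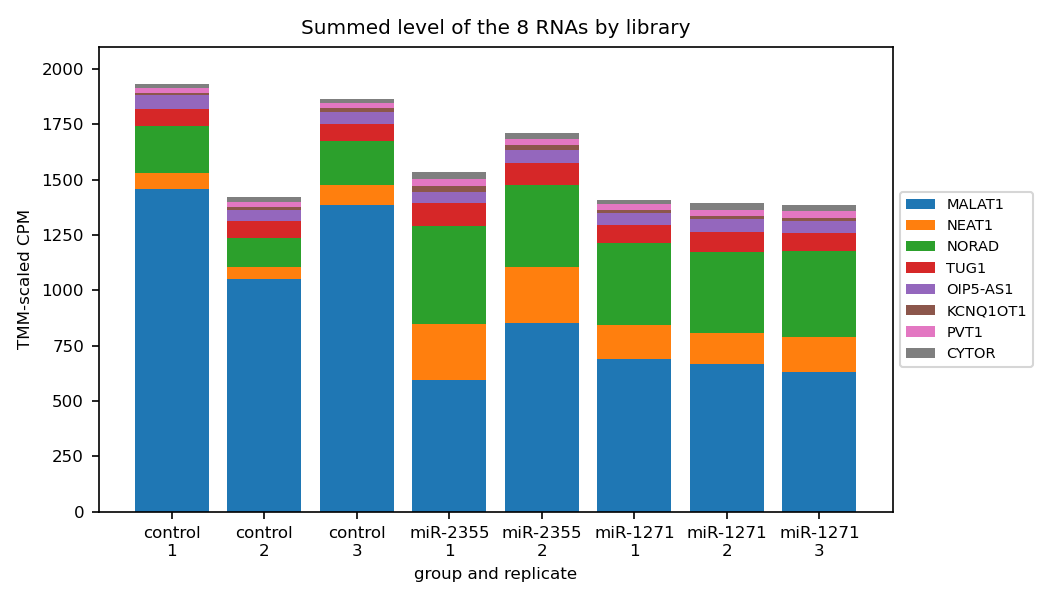
Summed TMM-scaled CPM (y axis, from 0) of the 8 RNAs in each library, with 1 segment per RNA. Segments are not corrected for transcript length. The MALAT1 segment made up 74.45% of the members' reads on average in the control group and 44.3% and 47.5% in the miR-2355 and miR-1271 groups, while the NORAD and NEAT1 segments were larger there.

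Ratios of raw reads between members within a library do not depend on how libraries were scaled. They were chosen after the levels had been seen and are given without a test. There were 20.3, 19.3 and 15.2 MALAT1 reads per NEAT1 read in the control libraries, 2.34 and 3.34 with miR-2355 and 4.54, 4.80 and 4.05 with miR-1271. By geometric means the control ratio was 6.48 times that with miR-2355 and 4.07 times that with miR-1271, and none of the groups overlapped. MALAT1 reads per NORAD read numbered 6.87, 7.99 and 6.92 in the control libraries, 1.35 and 2.30 with miR-2355 and 1.87, 1.85 and 1.62 with miR-1271, so the microRNA groups overlapped while both lay apart from the control. NORAD reads per NEAT1 read were 2.52 ± 0.397 (SD, n = 3) in the control and 2.51 ± 0.0847 (SD, n = 3) with miR-1271, but 1.59 ± 0.202 (SD, n = 2) with miR-2355. NORAD reads per OIP5-AS1 read rose from 3.21 ± 0.556 (SD, n = 3) in the control to 7.25 ± 1.53 (SD, n = 2) and 6.78 ± 0.501 (SD, n = 3).

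**Figure D4:**
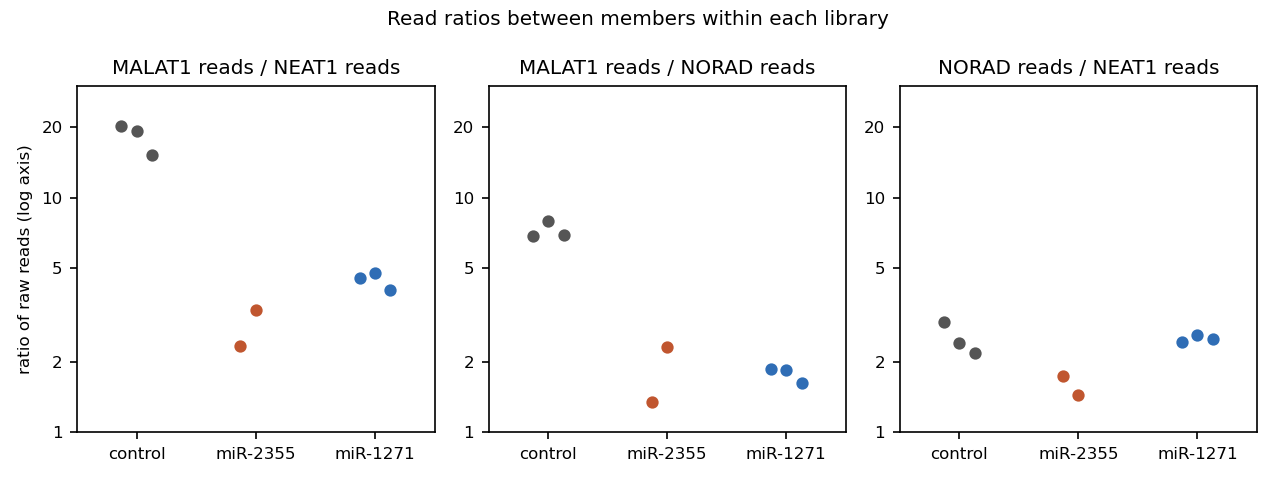
Ratios of raw reads between pairs of members within each library (log axis from 1 to 30), 1 point per library. MALAT1 per NEAT1 ran from 15.2 to 20.3 in control libraries and from 2.34 to 4.80 in microRNA libraries, and NORAD per NEAT1 was lower with miR-2355 (1.45 and 1.73) than in the other 6 libraries (2.19 to 2.96).

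The spread between libraries differed from member to member. The coefficient of variation that edgeR estimated between libraries of a group was 9.71% for TUG1, 9.92% for OIP5-AS1 and 13.8% for MALAT1, with the others between. In the control group the largest spreads were those of NEAT1 (25.4% of the mean), NORAD (24.1%) and MALAT1 (16.8%). Control replicate 2, the shallowest library, held the lowest control value of all 3 of these RNAs. Its part in the results was measured by leaving it out: with miR-1271 the log2 fold change was then 0.87 for NEAT1, 0.86 for NORAD and -1.10 for MALAT1, and with miR-2355 it was 1.64, 0.97 and -0.98, all of which still passed.

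Across the 8 libraries, which share the group structure and the scaling, log2 CPM of NEAT1 and NORAD correlated at r = 0.92 and that of NORAD and PVT1 at r = 0.85. MALAT1 ran against PVT1 (r = -0.93), NORAD (r = -0.80), CYTOR (r = -0.75), NEAT1 (r = -0.73), TUG1 (r = -0.60) and KCNQ1OT1 (r = -0.36). The correlations of OIP5-AS1 with the other members ran from -0.27 to 0.36. Outside the set, the row most like MALAT1 was ENSG00000154305 (r = 0.99), with mean levels of 182 CPM in the control, 78.5 with miR-2355 and 70.9 with miR-1271. The row most like NORAD was ENSG00000101752 (r = 0.99), with means of 75.0, 132 and 120.1 CPM in that order. These rows were not alone: 163 rows correlated above 0.95 with MALAT1 and 167 with NORAD, a small part of the 17343 compared. The values describe a shared pattern over 3 groups and no more.

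**Figure D5:**
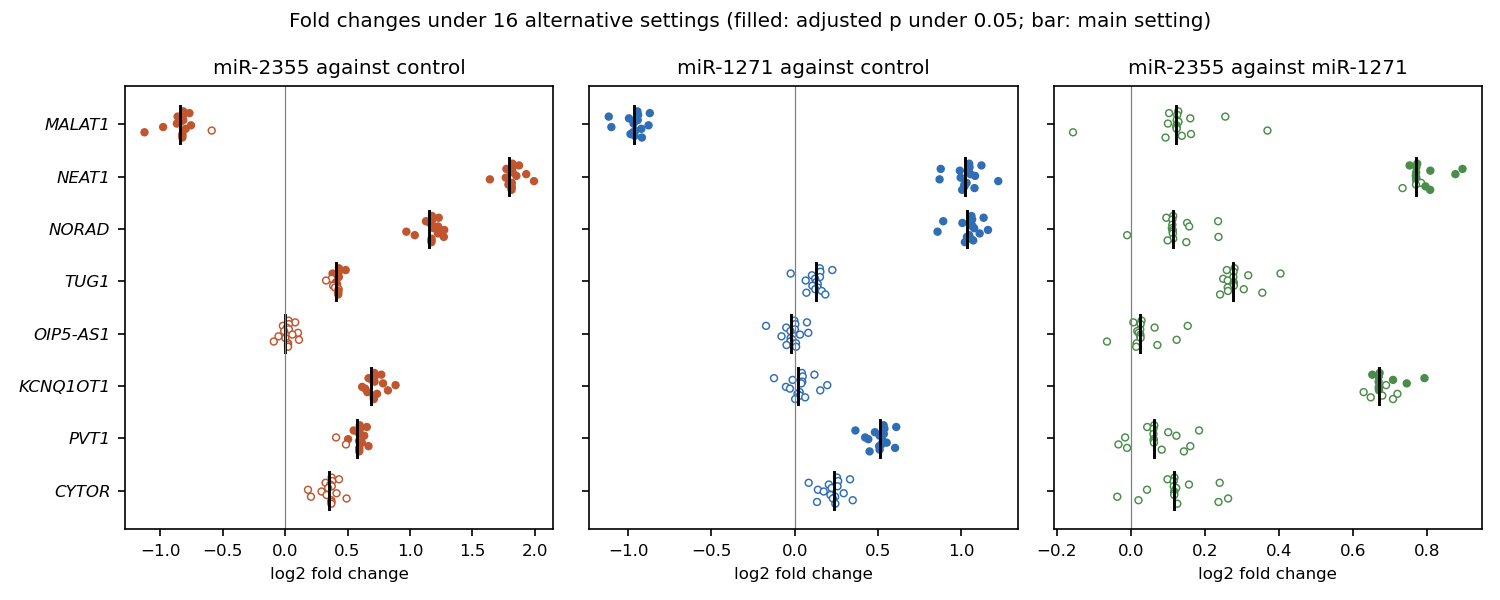
Log2 fold changes (x axis) of each RNA in the 3 comparisons under 16 alternative settings (points, filled where the adjusted p was under 0.05) with a bar at the value reported. NEAT1 and NORAD stayed between 0.86 and 1.99 against the control in all of them, and MALAT1 between -1.13 and -0.59, whereas OIP5-AS1 lay on both sides of 0.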

How the data were processed

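The deposited table holds raw read counts per Ensembl gene ID, 1 column for each of the 8 libraries. Per the submitters' processing notes, BWA and featureCounts were used with hg38 (GRCh38). Not given in the sources used here are versions, annotation release, strand and multi-mapping settings. BWA does not splice reads, so multi-exon RNAs may be counted low in all libraries. Counts were fitted with edgeR 4.0.16 in R 4.3.3: filterByExpr (17351 genes kept), TMM, 1 mean per group over all 8 libraries, glmQLFit and glmQLFTest, Benjamini-Hochberg over all tested genes. Standard errors are the log2 fold change over the square root of F and are approximate. The steps were tested on simulated data with far fewer changed genes than were called here, as many raised as lowered. That test does not cover how the scaling behaves when many genes change. Alternatives were DESeq2 1.42.0, other scalings, no filter, the compared groups alone, a replicate block, equal depth and omission of each library. Members were named from the list of IDs. All 8 were named, with every library's value, and likeness was the highest Pearson r of log2 CPM (prior count 2). The members and lists were chosen with earlier results of these data known. No RefSeq gene row holds an Ensembl ID (0 matched), so planned lists of partner proteins, locus neighbours, other noncoding RNAs and kidney cell markers, and with them a check of the cell label, were not run. Labels do not say whether libraries are separate cultures, so p-values measure spread between libraries that may be technical. Replicate counts differed beyond sampling noise in every pair of a group (chi-square per degree of freedom 6.21 to 21.9).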

Additional observations from a re-analysis of the deposited data

Results flagged for a closer look

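NEAT1 was picked out because the effects of the microRNAs differed from each other in the direct comparison, by a log2 difference of 0.77, higher with miR-2355. KCNQ1OT1 was picked out by the same test at 0.67, with a rise with miR-2355 and a log2 fold change of 0.02 with miR-1271. Both differences rest on 2 miR-2355 libraries, and neither passed without either one of them.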

How the results depend on the processing

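Over 24 combinations of member and comparison and 16 alternatives (384 values), 344 kept direction and side of the threshold, 17 no longer passed, 0 newly passed and 23 changed sign, all of the last among results that had not passed. Of the 8 members, 6 were called for miR-2355 against control; leaving out 1 library gave 3 to 6, the fewest without miR-2355 replicate 1. For miR-1271 against control 4 were called in every alternative. Between the microRNAs 2 were called, 1 at equal depth, and 0 to 2 on leaving out 1 library. Without miR-2355 replicate 1, miR-2355 replicate 2 or miR-1271 replicate 2 none was called (0 by edgeR), and without miR-1271 replicate 1 or 3 only NEAT1 was (1). The share of all genes called moved too: 29.8% for miR-2355 fell to 13.0% without its replicate 1 and to 13.0% with no filter, 40.2% for miR-1271 to 17.5% with no filter, and 6.15% between the microRNAs ran from 1.25% (without miR-2355 replicate 2) to 11.4% (compared groups alone).

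Replicate numbers showed no sign of pairing the libraries: correlations of same-numbered deviations ran from -0.103 to 0.019. With so few libraries per group these values cannot show that libraries were unpaired, and the labels do not say. With the replicate block 5 members were called for miR-2355, 4 for miR-1271 and 2 between the microRNAs. Over all tested genes 23.3%, 36.9% and 3.09% were called with the block, in the same order. TUG1 was lost for miR-2355 (log2 fold change 0.37) and OIP5-AS1 turned to -0.0077.

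Sign changes by setting were as follows. With library totals alone, OIP5-AS1 was -0.018 with miR-2355, TUG1 -0.024 and KCNQ1OT1 -0.12 with miR-1271. With no filter KCNQ1OT1 was -0.012 with miR-1271. For OIP5-AS1 with miR-1271 upper-quartile factors gave 0.074, RLE factors 0.0039, the compared groups alone 0.0012 and equal depth 0.082. At equal depth PVT1 differed by -0.015 between the microRNAs. Leaving out 1 library, OIP5-AS1 ran from -0.091 to 0.11 with miR-2355 and from -0.079 to 0.032 with miR-1271, and KCNQ1OT1 from -0.052 to 0.15 with miR-1271. Between the microRNAs MALAT1 ran from -0.16 to 0.37, NORAD from -0.0097 to 0.24, OIP5-AS1 from -0.064 to 0.12, PVT1 from -0.033 to 0.16 and CYTOR from -0.036 to 0.26. The causes were not tested. Where 1 miR-2355 library was left, it was assumed to vary like the other groups.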
